A study of Mus musculus with 4 samples.

Results

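UDP-glucuronosyltransferases are the enzymes that attach glucuronic acid to bilirubin, steroids, bile acids and foreign compounds. Their expression was followed in mouse renal cortex. The members are all probes whose symbol in the platform annotation begins with Ugt1a, Ugt2a, Ugt2b or Ugt3a. Of 9076 named genes on the array, 5 met that rule, each with 1 probe and 1 spot: Ugt1a2, Ugt1a6a, Ugt2a3, Ugt2b1 and Ugt2b37. No Ugt3a gene was among them. Ugt1a2 and Ugt2b37 had been singled out beforehand for their values on these same arrays, so their differences are given as descriptions.

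The 4 groups were DM-KO, DM-WT, ND-KO and ND-WT, each of 5 male mice and each read on 1 array. DM-KO mice lacked the adhesion molecule ICAM-1 (ICAM-1-/-, C57BL/6J background) and received streptozotocin (STZ), a toxin of pancreatic beta cells, at 200 mg/kg in citrate buffer at 8 weeks of age. DM-WT mice were C57BL/6J (ICAM-1+/+) and received the same STZ dose. ND-KO mice were ICAM-1-/- and ND-WT mice were ICAM-1+/+, and both received citrate buffer alone. All kidneys were taken 12 weeks after the injection, at 20 weeks of age. Only STZ mice above a set blood glucose entered the study, and the knockout was a purchased strain rather than one deleted in a chosen cell type. The labels do not say whether an array carried RNA of 1 mouse or of several pooled, so no difference between 2 groups below has a replicate error or a test of its own. A joint fit over the 4 arrays is described further on. No probe analysed here is named Icam1, so the genotype could not be checked from the knocked-out gene.

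These enzymes sit in the endoplasmic reticulum and take glucuronic acid from UDP-glucuronic acid, which makes a lipid-soluble substrate water-soluble enough for export into bile or urine. The Ugt1a enzymes come from 1 locus, in which each has its own first exon and promoter and all share the remaining exons. The Ugt2a and Ugt2b enzymes are mostly separate, closely related neighbouring genes. Liver, intestine and the proximal tubule of the kidney are known sites of glucuronidation. RefSeq (GRCm38.p6) lists 21 protein-coding genes of these 4 subfamilies, with 9 Ugt1a genes on chromosome 1, 3 Ugt2a and 7 Ugt2b genes on chromosome 5, and 2 Ugt3a genes on chromosome 15. Of the 9 Ugt1a genes, 7 end at the same base. The position of each array probe within its transcript was not given in the sources used here, so a probe in shared Ugt1a exons, or in sequence that Ugt2b copies have in common, could report more than the gene it is named for.

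The 250 bases before the annotated start, 5′ to 3′ on the gene's strand, are given for the members with the largest differences, with the Ugt2b gene most like Ugt2b37 there. All 5 members had a RefSeq entry. The windows are Ugt1a2 at chr1:88200361-88200610 on the plus strand, Ugt2b37 at chr5:87254789-87255038 on the minus strand and its closest relative Ugt2b38, which has no probe here, at chr5:87424204-87424453 on the minus strand. Capitals in Ugt2b38 mark the bases not identical to Ugt2b37 when both were aligned end to end with gaps allowed. The runs of capitals near its 5′ end face gaps in Ugt2b37, whose window extends past it at the 3′ end.
Ugt1a2: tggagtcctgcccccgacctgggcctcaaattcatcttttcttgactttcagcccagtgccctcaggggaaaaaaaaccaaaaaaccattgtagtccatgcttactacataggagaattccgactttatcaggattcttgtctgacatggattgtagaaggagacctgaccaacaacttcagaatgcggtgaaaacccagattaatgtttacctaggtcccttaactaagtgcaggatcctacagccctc
Ugt2b37: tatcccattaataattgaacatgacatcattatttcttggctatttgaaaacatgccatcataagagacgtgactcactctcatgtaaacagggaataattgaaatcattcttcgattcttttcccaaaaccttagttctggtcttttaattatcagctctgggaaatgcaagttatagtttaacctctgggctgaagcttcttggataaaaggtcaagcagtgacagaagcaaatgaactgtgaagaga
Ugt2b38: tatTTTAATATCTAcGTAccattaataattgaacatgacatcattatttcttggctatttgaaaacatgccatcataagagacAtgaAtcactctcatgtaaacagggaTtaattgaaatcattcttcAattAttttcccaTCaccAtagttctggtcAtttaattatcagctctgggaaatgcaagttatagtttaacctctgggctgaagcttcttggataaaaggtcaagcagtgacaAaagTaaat

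Ugt2b38 had 225 of the 250 bases of the Ugt2b37 window in the alignment (90.0%), and Ugt2b5 had 80.0%. Bases that faced a gap counted as not identical in all these shares. Other Ugt2b genes were less alike, with 66.8% for Ugt2b35, 66.0% for Ugt2b36 and 61.6% for Ugt2b34, and Ugt2b1 shared 150 of the 250 bases. Ugt1a2 and Ugt1a6a, which share a locus, were 57.6% identical over this window. That was no nearer than the 52.4% to 61.2% in 49 comparisons of a member with a family gene on another chromosome. Pairs made of members only were counted there from both sides. Both strands were searched for the core GCGTG bound by the aryl hydrocarbon receptor, the antioxidant response core TGACNNNGC and the TATA box TATAAA. These letters were in none of the 5 members' windows. Of 32851 mouse windows of the same length, 28.2% held GCGTG, 10.2% TGACNNNGC and 12.4% TATAAA.

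Each spot carries a quality mark, usable, empty or poor, and a gene was called measured only where its spot was usable. Usable gene probes made up 62.8% to 66.2% of 10032 on the 4 arrays, and repeated spots of a bacterial control had a median coefficient of variation of at most 7.87% within an array. The DM-WT array stood apart. Its bacterial spike signal was 0.556 of that on ND-WT, against 1.22 on DM-KO and 1.27 on ND-KO. In the upper block, columns 44 to 48, 24 of 138 probes bright on the other arrays (background-subtracted intensity of at least 100) lay more than 2-fold below all of them on DM-WT, against 0 of 34 such probes in column 43 of that block. No member lies in those columns of the upper block, but Ugt2b37 lies in column 43, beside them. Ugt1a2 lies in column 47 of the lower block, where 1 of 145 such probes in columns 44 to 48 was dim on DM-WT in the same way. Of the proximal tubule markers, 14 of the 14 present were usable on every array.

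**Figure D1:**
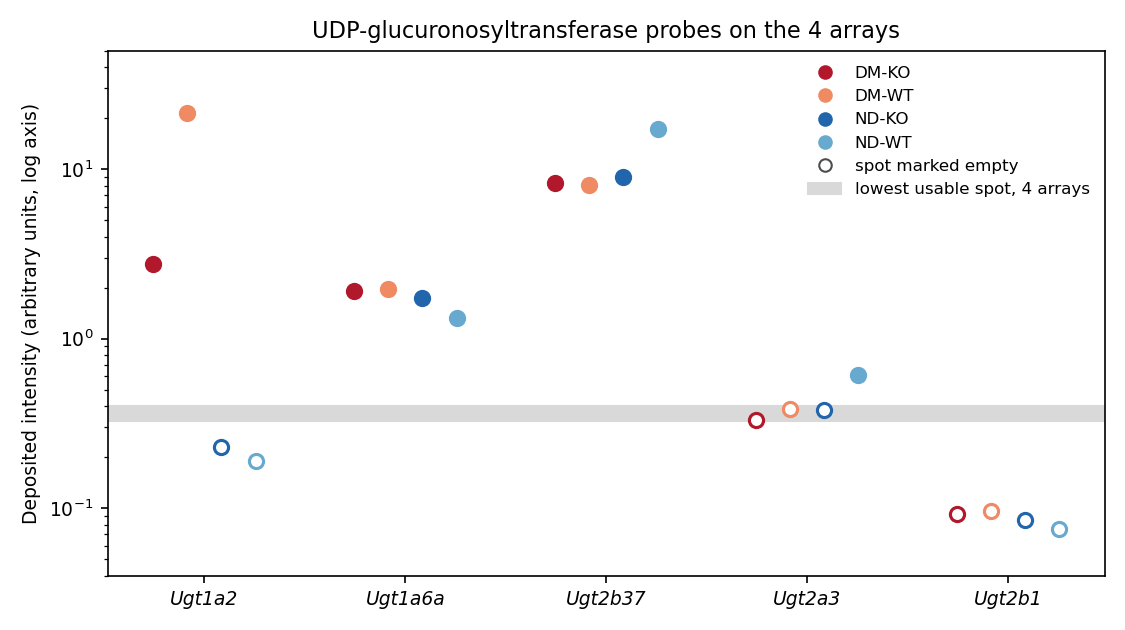
Intensity of each Ugt probe in the authors' deposited value table (arbitrary units, log axis) on the DM-KO, DM-WT, ND-KO and ND-WT arrays, with spots marked empty as open points and a grey band from the lowest to the highest of the 4 arrays' lowest usable spots. Ugt1a2 stands at 2.75 on DM-KO and 21.6 on DM-WT and below the band on ND-KO and ND-WT, Ugt2b37 is highest on ND-WT at 17.2, and Ugt2b1 lies below the band on all 4.

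Ugt1a2, a rodent enzyme whose human counterpart is a pseudogene, was measured on both diabetic arrays and on neither nondiabetic array. Its background-subtracted intensity was 128.8 on DM-KO and 821 on DM-WT, with 10.3 on ND-KO and 8.35 on ND-WT, and the spots on ND-KO and ND-WT were marked empty. On the log2 scale after normalization these are 7.42, 9.98, 5.89 and 5.86 in the same order of arrays. Of the 300 negative control spots, 0 reached the Ugt1a2 signal on DM-KO and 0 on DM-WT, while 11 reached it on ND-KO and 17 on ND-WT. The nondiabetic signals therefore lay among those of the negative controls, and only a lower bound on the diabetic change can be given.

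The bound sets the measured array against the lowest usable spot of the dim array, or against the dim probe's own signal where that was higher. For Ugt1a2 DM-WT exceeded ND-WT at least 15.3-fold, and DM-KO exceeded ND-KO at least 2.65-fold. Among genes measured on 1 array of the pair, 0.781% had a bound of 2-fold or more upward for DM-WT over ND-WT and 0.505% for DM-KO over ND-KO. Normexp with an added offset compresses dim signals, and in the authors' deposited value table, which has no offset, the same bounds were at least 57.6-fold and at least 7.86-fold. The KO pair holds no DM-WT spot, but the quantile normalization behind the 2.65-fold bound was run over all arrays together, DM-WT included.

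Between the diabetic arrays, where both spots were usable, Ugt1a2 had a log2 difference of −2.56 for DM-KO over DM-WT, which is 5.92-fold lower on DM-KO. This was the lowest difference of the 6111 genes measured on both, and the authors' value table gave 7.85-fold. The spots within 5 rows and columns of it had value-table log2 ratios with a median of 0.06 over 40 spots and a lowest value of −1.47. Ugt1a2 itself had −2.97. As Ugt1a2 was picked for its values here and ranked lowest, its place below its neighbours is a description only. Of the 3 members measured on both diabetic arrays, 1 was 2-fold or more lower on DM-KO, Ugt1a2 itself, and 0 were higher, against 0.311% of all genes lower and 0.115% higher. At 1.5-fold it was again Ugt1a2 alone, against 1.06% of all genes lower. With no replicates, a difference between genotypes cannot be told apart from one between the animals or arrays sampled.

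Macrophage marker levels, like Ugt1a2, were highest on DM-WT and next on DM-KO. The value-table levels of the 6 macrophage markers on the array summed to 20.9 on DM-KO and 29.2 on DM-WT, with 15.3 on ND-KO and 14.6 on ND-WT, with 5 of the 6 usable on every array and Adgre1 usable on none. All 5 measured markers had positive differences in both diabetic comparisons, 4 of them past 1.5-fold for DM-WT over ND-WT, against 1.75% of all genes, with a median log2 difference of 0.85 for DM-WT over ND-WT and 0.39 for DM-KO over ND-KO. The 5 thick limb and distal tubule markers had the same 2 arrays on top. Their sums were 233 on DM-WT and 177 on DM-KO, the latter close to 175 on ND-KO and 173 on ND-WT. Their median log2 difference was 0.53 for DM-WT over ND-WT, with 2 of the 5 past 1.5-fold upward, and 0.32 for DM-KO over ND-KO. Egf was lower in both comparisons (−0.24 and −0.23), and Umod was lower for DM-KO over ND-KO (−0.44), where 3 of the 5 were above 0. The 4 collecting duct markers summed to 47.8 on DM-KO and 45.5 on DM-WT, with 33.0 on ND-KO and 42.0 on ND-WT. The part of any of these lists in the Ugt1a2 result was not tested. In bulk cortex, fewer cells of a type and less RNA per cell cannot be told apart.

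Ugt1a6a, which conjugates small planar phenols, was measured on all 4 arrays. Its background-subtracted intensity was 89.7 on DM-KO and 74.9 on DM-WT, with 78.3 on ND-KO and 57.9 on ND-WT, and its log2 intensity 7.06, 7.08, 6.97 and 6.74. The 3 other arrays lay close together above ND-WT, which was lowest. The log2 difference was 0.35 (1.27-fold) for DM-WT over ND-WT, rank 288 from the highest of 6055 genes, and 0.23 for ND-KO over ND-WT. It was 0.09 for DM-KO over ND-KO and −0.02 for DM-KO over DM-WT, and the last changed sign in 2 of 6 other ways of processing. With this processing Ugt1a6a passed 1.5-fold in none of the 4 comparisons. Plain background subtraction gave a log2 difference of 0.59 for DM-WT over ND-WT, just past 1.5-fold. Its 1.27-fold for DM-WT over ND-WT stands beside the bound of 15.3-fold for Ugt1a2, the other gene of the locus on the array. In the authors' value table the 2 values were 1.49-fold and at least 57.6-fold.

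**Figure D2:**
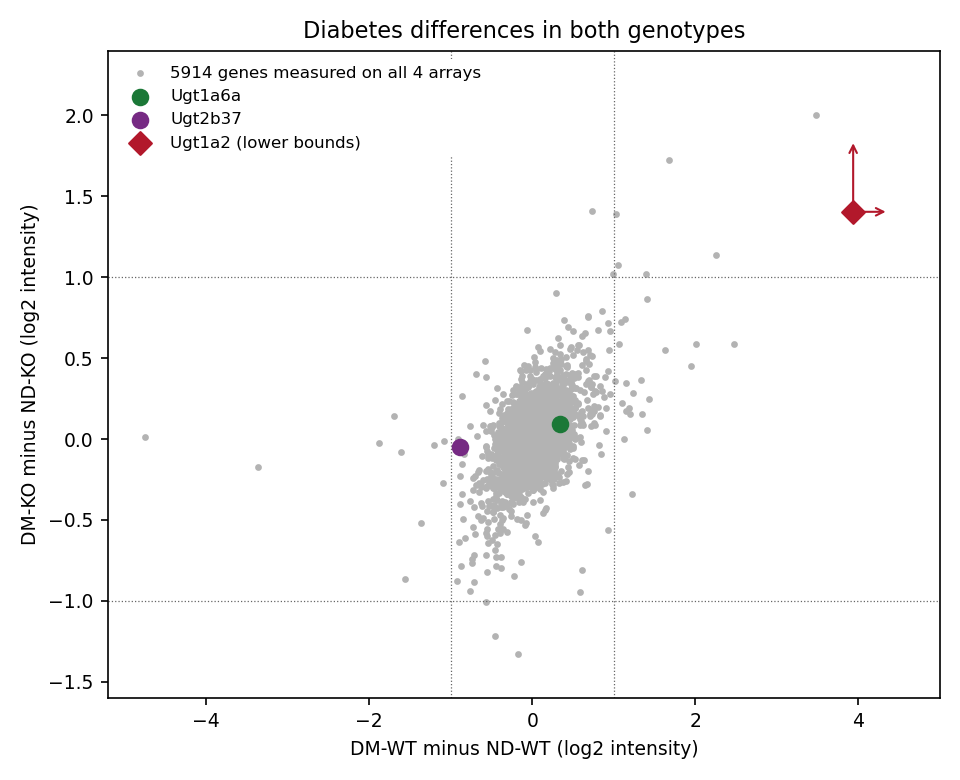
Log2 difference of DM-WT minus ND-WT (horizontal) against DM-KO minus ND-KO (vertical) for genes measured on all 4 arrays (grey), with dotted lines at 2-fold. Ugt1a2 is drawn at its lower bounds of 3.94 and 1.40 with arrows toward larger values, Ugt1a6a lies at 0.35 and 0.09, and Ugt2b37 at −0.88 and −0.05.

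Ugt2b37 was measured on all 4 arrays and was highest on ND-WT. Its background-subtracted intensity was 387 on DM-KO and 307 on DM-WT, with 406 on ND-KO and 754 on ND-WT, all usable. Its log2 intensity was 8.71, 8.68 and 8.76 on DM-KO, DM-WT and ND-KO, against 9.56 on ND-WT. Of 300 negative controls, 0 reached it on any array. ND-WT was thus the single high array, and the other 3 lay close together.

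The log2 difference of Ugt2b37 was −0.88 for DM-WT over ND-WT, which is 1.85-fold lower and rank 16 from the lowest of 6055 genes. It was −0.05 for DM-KO over ND-KO, rank 2161 from the lowest of 6339. Between genotypes it was 0.03 for DM-KO over DM-WT and −0.80 for ND-KO over ND-WT, which is 1.75-fold lower and rank 12 from the lowest of 6258. The 2 large differences share the ND-WT array, and both rest on it. The diabetes difference was 0.83 higher in KO than in WT mice on the log2 scale, a value from 1 array a group with no test.

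Ugt2b37 fell short of 2-fold here, but passed it for DM-WT over ND-WT when each array was scaled to the same median (log2 difference −1.08) and in the authors' value table (2.13-fold lower). At 1.5-fold it passed in both comparisons, as 1 of 2 members measured, against 0.875% of all genes lower for DM-WT over ND-WT and 0.447% for ND-KO over ND-WT. In those comparisons 0 members were 1.5-fold higher, against 1.75% and 0.176% of all genes. At 2-fold the count was 0 of 2 members for DM-WT over ND-WT, DM-KO over ND-KO and ND-KO over ND-WT. The 2-fold shares over all genes in those comparisons were 0.446%, 0.142% and 0.0479% higher and 0.165%, 0.0473% and 0.0479% lower.

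The spot of Ugt2b37 lies beside the columns where some bright probes were dim on DM-WT. Within 5 rows and columns of it, the value-table log2 ratio of DM-WT over ND-WT had a median of 0.03 over 76 spots, and 1 spot lay below the −1.09 of Ugt2b37. For ND-KO over ND-WT, which does not use the DM-WT array, the median was 0.01 over 77 spots and 0 lay below its −0.93. As Ugt2b37 was picked for its values here, its place below its neighbours is a description only. The summed value-table level of the 14 proximal tubule markers was 388 on DM-KO and 374 on DM-WT, with 451 on ND-KO and 467 on ND-WT. Gene by gene, 3 were above 0 and 11 below in each diabetic comparison. The medians were −0.18 for DM-WT over ND-WT and −0.14 for DM-KO over ND-KO. For ND-KO over ND-WT 9 were above 0 and 5 below, with a median of 0.06. The summed level of 12 liver markers was 51.3, 52.6, 59.8 and 67.8 on DM-KO, DM-WT, ND-KO and ND-WT, with 9, 8, 9 and 8 of them usable. Single liver markers ran in both directions, and Ttr had −0.49 for DM-WT over ND-WT. For DM-WT over ND-WT 4 of 7 measured were above 0, with a median of 0.37, and 3 passed 1.5-fold upward: Apoc3 at 1.02, Fgg at 0.96 and Apoa2 at 0.61, against 1.75% of all genes. For ND-KO over ND-WT 5 of the 8 liver markers measured were above 0 and 3 below, with a median of 0.22. The liver markers Apoa1, Cyp2c29 and Cyp3a11 were usable on no array. The part of either list in the Ugt2b37 result was not tested.

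Ugt2a3, whose human form conjugates bile acids, was usable on ND-WT alone. Its background-subtracted intensity was 15.6 on DM-KO, 14.6 on DM-WT and 17.2 on ND-KO, all marked empty, and 26.9 on ND-WT. On ND-WT it was just above the limit of measurement, with 0 of 300 negative controls at or above it, against 5, 8 and 6 on DM-KO, DM-WT and ND-KO. It was at least 1.14-fold lower on DM-WT and at least 1.15-fold lower on ND-KO than on ND-WT, bounds short of the 2-fold that 4.1% of genes measured on 1 array of the pair reached downward for DM-WT over ND-WT and 0.0% for ND-KO over ND-WT. Ugt2b1, an enzyme abundant in mouse liver, was usable on no array. Its signal of 4.31, 3.66, 3.85 and 3.32 on DM-KO, DM-WT, ND-KO and ND-WT was reached by 81, 153, 155 and 201 of the 300 negative controls, so no fold is given. Markers of the urothelium of the renal pelvis, another glucuronidating epithelium, were 4, 3, 3 and 3 of 7 usable on these arrays, and adrenal markers 0 of 5 on each.

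Diabetes and genotype were also fitted together across the 4 arrays with limma, which has 1 residual degree of freedom per gene. That residual is the departure from additive effects, not a spread among replicates, so the fit does not measure variation between mice or arrays. A gene whose diabetes difference depends on genotype gets a large error in it. For Ugt1a2 the fit also used its 2 empty spots. Of 6512 genes tested, 0.0154% passed an adjusted p of 0.05 for diabetes and 0.0461% for genotype. Of the 3 members tested, 0 passed for either effect. At an unadjusted limma p under 0.05 there was 1 member for diabetes, Ugt1a2, beside 832 of the 6512 genes. For genotype there were 0 members, beside 592 genes. Ugt1a2 entered the fit through its usable spots on the diabetic arrays alone. Since Ugt1a2 and Ugt2b37 were chosen from these contrasts, nothing is read from those counts.

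The genes whose 4-array profile lay nearest to each named member were found by Euclidean distance between log2 values centred on each gene's mean, among 5994 genes. For Ugt1a2 the values on ND-KO and ND-WT come from empty spots among the negative controls, so its distances and their order describe the signals as read and would change with the true levels. Nearest to Ugt1a2 was Irf7, an interferon regulatory transcription factor, at a distance of 1.40. Its log2 intensity was 8.38 on DM-KO and 10.18 on DM-WT, with 7.80 on ND-KO and 7.69 on ND-WT. The next were Cdkn1a, an inhibitor of cyclin-dependent kinases, at 1.62, Cyp4a14, a fatty acid hydroxylase, at 1.74, Lgals3bp, a secreted galectin-binding glycoprotein, at 1.76 and Cck, the gut peptide hormone, at 1.97. All 5 were highest on DM-WT and second highest on DM-KO. Cdkn1a, like Ugt1a2, was usable on the diabetic arrays alone.

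Nearest to Ugt2b37 was Hpd, a dioxygenase of tyrosine breakdown, at a distance of 0.0812. Its log2 intensity was 8.42 on DM-KO and 8.43 on DM-WT, with 8.42 on ND-KO and 9.33 on ND-WT. G6pc, the catalytic subunit that frees glucose for release, followed at 0.182 with 10.01, 10.21, 10.16 and 11.07 on those arrays. Inmt, an amine methyltransferase, lay at 0.231, and Slc15a2, a peptide transporter, at 0.317. Each of these 4 was highest on ND-WT. All these profiles are read from the same 4 arrays.

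**Figure D3:**
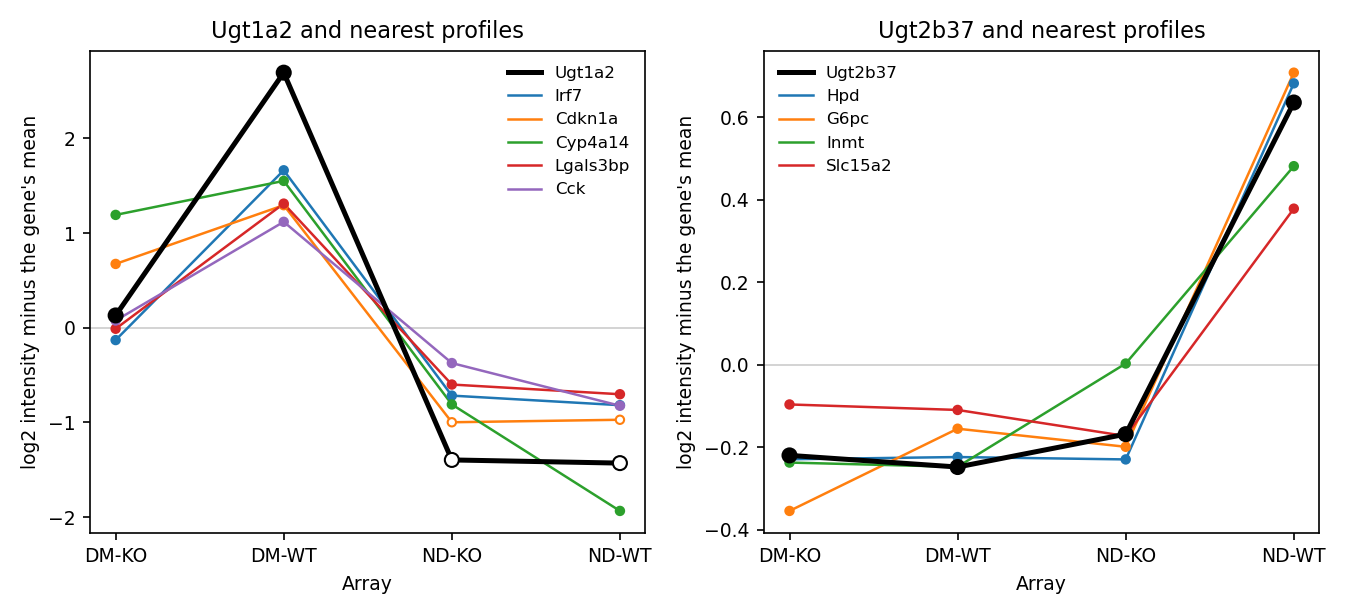
Log2 intensity minus each gene's mean on the 4 arrays for Ugt1a2 (left) and Ugt2b37 (right), black, with 5 of the nearest profiles for Ugt1a2 and 4 for Ugt2b37; open points were spots not usable. The Ugt1a2 set peaks on DM-WT and the Ugt2b37 set on ND-WT.

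The genes that make and use UDP-glucuronic acid lay near 0 as a group. Of 16 listed, 13 were on the array and 12 were measured, and 0 passed 1.5-fold in either diabetic comparison. Their median log2 difference was −0.09 for DM-WT over ND-WT and 0.08 for DM-KO over ND-KO, against 0.00 and −0.01 over all genes. Ugdh, which makes UDP-glucuronic acid from UDP-glucose, had a log2 intensity of 9.70 on DM-KO and 9.08 on DM-WT, with 9.45 on ND-KO and 9.54 on ND-WT, so DM-WT was lowest. Its difference of 0.61 for DM-KO over DM-WT was the 1 of its list past 1.5-fold there, against 0.769% of all genes. Gusb, the lysosomal enzyme that removes glucuronic acid again, had differences of −0.36 and −0.26 in DM-WT over ND-WT and DM-KO over ND-KO. Ugp2, which supplies UDP-glucose, had 0.02 and −0.06.

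The list drawn as conjugate export also holds organic anion carriers that are not exporters, such as Slc22a6. Of its 9 genes on the array, 7 were measured and 0 passed 1.5-fold in either diabetic comparison. The medians were −0.12 for DM-WT over ND-WT and 0.03 for DM-KO over ND-KO. Abcc2, the apical pump for glucuronides, had differences of 0.07 and 0.03. Slc22a6, a basolateral organic anion transporter of the proximal tubule, had −0.35 and −0.13. Abcc3, a pump for glucuronides on the other side of the cell, was usable on no array.

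Among 20 receptors and transcription factors known to act on Ugt genes, 10 were measured in DM-WT over ND-WT and 12 in DM-KO over ND-KO. In DM-WT over ND-WT 0 passed 1.5-fold and the median was 0.02. In DM-KO over ND-KO 1 was 1.5-fold higher, against 0.536% of all genes, and the median was 0.01. That gene was Hnf4a, a hepatocyte and proximal tubule factor, with a log2 difference of 0.93. Its spot lies in the columns where some bright probes were dim on DM-WT, and it was not usable on that array. Ahr, the aryl hydrocarbon receptor, had 0.15 and −0.05, and Nfe2l2, the NRF2 factor, 0.19 and 0.22. The receptors PXR (Nr1i2) and CAR (Nr1i3) were usable on no array, and neither were Rxra, Cdx2, Foxa2, Foxa3 and Esr1.

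Other targets of these receptors gave 6 measured genes of 12 on the array, and 0 passed 1.5-fold in either diabetic comparison. Cyp1a1, a classical target of the aryl hydrocarbon receptor, had log2 differences of −0.02 for DM-WT over ND-WT and 0.00 for DM-KO over ND-KO. Cyp1b1 had 0.25 and 0.23. Nqo1, a quinone reductase, had 0.21 and 0.56. Its 0.62 for DM-KO over DM-WT was the 1 difference of its list past 1.5-fold in that comparison, against 0.769% of all genes higher.

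On the substrate side, 3 of 5 genes from haem to bilirubin were on the array. Hmox1, which opens the haem ring, had a log2 difference of 0.63 for DM-WT over ND-WT, the 1 gene of the 3 past 1.5-fold, against 1.75% of all genes higher, and of 0.14 for DM-KO over ND-KO. For DM-KO over DM-WT it had −0.74. Alas1, the first enzyme of haem synthesis, had −0.07 and −0.22 in the diabetic comparisons, and −0.76 for DM-KO over DM-WT and −0.61 for ND-KO over ND-WT. Hmox2, the constitutive haem oxygenase, had −0.13 and 0.07.

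Sulfotransferases, the other large family of conjugating enzymes, had 11 genes on the array, of which 4 were measured. All 4 were above 0 in both diabetic comparisons with medians of 0.19 for DM-WT over ND-WT and 0.10 for DM-KO over ND-KO, and 0 passed 1.5-fold. Sult1a1, the phenol sulfotransferase, had 0.39 and 0.05, and −0.63 for DM-KO over DM-WT. Ugt8a, a galactosyltransferase of the wider superfamily that makes galactolipids and is no member, had log2 intensities of 7.69 on DM-KO and 7.62 on DM-WT, with 8.30 on ND-KO and 8.45 on ND-WT. Both diabetic arrays were lower, with differences of −0.83 for DM-WT over ND-WT and −0.61 for DM-KO over ND-KO. In the limma fit 0 genes of these lists passed the adjusted p of 0.05 for diabetes or for genotype, as did 1 and 3 of all 6512 genes. At an unadjusted p under 0.05 the counts over all genes were 832 for diabetes and 592 for genotype.

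**Figure D4:**
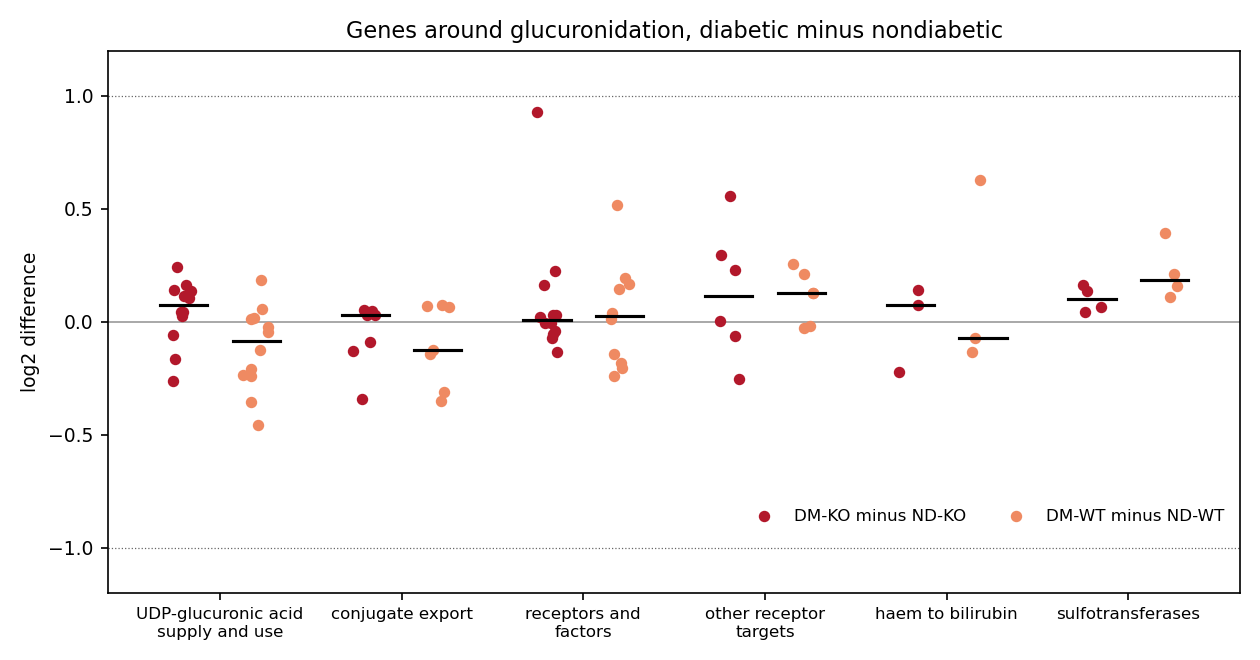
Log2 difference of each measured gene in 6 lists around glucuronidation, DM-KO minus ND-KO (dark) and DM-WT minus ND-WT (light), with the median as a bar and dotted lines at 2-fold. No gene in these lists reaches 2-fold in either comparison.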

How the data were processed

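Total RNA of renal cortex from 4 groups was read on 1 CodeLink bioarray per group, scanned with an Axon GenePix instrument and quantified in CodeLink Expression Analysis software 2.3.2, per the labels. The scanner tables deposited hold spot and local background intensity on a linear scale, per the file headers, with a quality mark per spot. The authors' value table is also intensity. Each column equalled the background-subtracted spot mean over a constant for that array (38.1 to 46.9), for 100.0% of probes compared within 0.1%. Its scale rule is unknown, it showed no centring of genes, and its column medians were 0.926 to 0.930.

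Intensities were background-corrected (normexp, offset 50) and quantile-normalized on the log2 scale in limma 3.58.1 under R 4.3.3, and log2 values are thus computed from deposited intensities. Of 10032 gene probes, 9208 had 1 symbol (8923 through the platform annotation and 285 through accessions), 823 had no symbol and 1 had more than 1. A gene's probes were averaged. A 2-fold difference served as the count in each comparison of single arrays, and a bound replaced it where 1 spot was not usable. Diabetes and genotype were fitted additively for genes measured on 2 or more arrays, with Benjamini-Hochberg adjustment. The fit was also run on simulated data with independent errors and additive changes. That run cannot speak to effects that are not additive. The number of arrays limits precision. Named genes are all members, the lists' genes and the 5 nearest profiles. Some genes and motifs these rules reach are not reported here. The members and gene lists were chosen with earlier results of these data known. Alternatives changed the background correction, scaling, filter, threshold, model and edge spots.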

Additional observations from a re-analysis of the deposited data

Results flagged for a closer look

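In 2 genes the genotype difference had opposite signs in diabetic and nondiabetic mice, and with 1 array per group that difference was not tested. For Ugt1a6a the log2 difference was −0.0221 for DM-KO over DM-WT and 0.2308 for ND-KO over ND-WT. For Ugt2b37 it was 0.0282 for DM-KO over DM-WT and −0.8042 for ND-KO over ND-WT. The 2 diabetic values are close to 0, and the sign for Ugt1a6a in the diabetic pair changed with processing.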

How the results depend on the processing

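The count of Ugt genes 2-fold apart for DM-WT over ND-WT was 0, and became 1 lower (Ugt2b37) with each array scaled to the same median, in the authors' value table and at 1.5-fold, but 1 higher (Ugt1a2) with no filter on dim probes. It became 1 higher (Ugt1a2) for DM-KO over ND-KO with no filter, and 1 lower (Ugt2b37) for ND-KO over ND-WT at 1.5-fold. For DM-KO over DM-WT it was 1 lower under all alternatives run. The diabetes calls over all genes, 1 at first, were 0 with an offset of 16, plain subtraction, no background correction, the value table, an intensity trend or no covariate. They were 82 with median scaling (30 higher and 52 lower) and 95 with edge spots left out (52 higher and 43 lower). Genotype calls, 3 at first, were 1 with an offset of 16, 0 with plain subtraction, 14 with median scaling, 12 without edge spots and 1 among genes measured on all 4 arrays. In 7 of those fits the calls were looked up by gene, and 0 of the 3 members tested passed in any. The cause of these shifts was not tested. The bound for Ugt1a2 ran from 14.1 to 58.7-fold in DM-WT over ND-WT and from 2.65 to 8.10-fold in DM-KO over ND-KO, and its log2 difference for DM-KO over DM-WT from −2.99 to −2.43. For Ugt2b37 the log2 difference ran from −1.08 to −0.88 for DM-WT over ND-WT and from −0.92 to −0.80 for ND-KO over ND-WT. No paired analysis was possible because each group has 1 array and the labels carry no replicate numbers. Signals near the negative controls limit Ugt2a3, Ugt2b1 and the nondiabetic Ugt1a2 values to bounds or none.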
